A study of Arabidopsis thaliana with 7 samples.

Results

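A divergent promoter is the stretch of DNA between 2 neighbouring genes that are transcribed away from each other, so that a single short region holds the start sites of both. Divergent pairs were taken from the TAIR10 annotation of Arabidopsis thaliana as neighbouring, non-overlapping protein-coding genes on chromosomes 1 to 5. The left gene lies on the minus strand and the right gene on the plus strand, and their transcription start sites (TSSs, the outermost annotated 5′ ends) are 1 to 1000 bp apart. Of 12610 neighbouring protein-coding pairs with this spacing, 2460 were divergent, 7512 were tandem (both genes on the same strand, so that the interval holds 1 TSS and the 3′ end of the other gene) and 2638 were convergent (2 gene ends and no TSS). The 4920 genes of the divergent pairs are 17.9% of the 27444 protein-coding genes. The interval scored for each pair ran between the 2 facing gene ends and was extended by 200 bp into each gene.

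E2F proteins are DNA-binding transcription factors that act on genes of DNA replication, repair and cell division, mostly as dimers with a DP partner. RETINOBLASTOMA-RELATED (RBR), the plant counterpart of the retinoblastoma protein, does not bind a DNA motif by itself and reaches promoters through E2Fs and other factors. E2FA and E2FB are commonly described as activators and E2FC as a repressor. E2Fs recognise a short GC-rich consensus. A site between 2 divergent genes lies upstream of both of them.

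The study mapped the 4 proteins by chromatin immunoprecipitation and sequencing (ChIP-seq) with a GFP antibody in untreated whole seedlings of the Col-0 ecotype. The plants carried E2FA-GFP, E2FB-GFP, E2FC-GFP or RBR-GFP, each under its own promoter (pE2FA, pE2FB, pE2FC or pRBR). The labels give 12 days of growth, and the study's methods give 14. E2FA, E2FB and RBR had 2 libraries each and E2FC had 1, which makes 7 peak lists: the 4 lists of replicate 1 hold broad peaks, with values averaged over each peak, and the 3 lists of replicate 2 hold narrow peaks with a summit and the value there. Neither untagged plants nor an input library was among the samples analysed, and replicate, peak format and batch cannot be told apart. The lists hold between 24883 and 28742 peaks on chromosomes 1 to 5, with median widths of 436 to 610 bp. They have a median fold enrichment (signal over the local background of the same library) of 1.62 to 1.81 in replicate 1 and 2.65 to 3.06 in replicate 2. Read depth is not in the peak lists and was not used here, so fold enrichments were compared within a list only, also as percentiles (the percent of the list's peaks with a lower fold enrichment).

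The sequences below are shown because they place the E2F consensus between or beside the start sites of cell cycle pairs with strong peaks. They were picked among the 12 highest-ranked such pairs for holding a match, and 4 of the 12 hold none (MCM6/BGLU13, AT1G02965/WEE1, RPA70D/EXO70E2 and UVI4/AT2G42270). Matches at RMI1/AT5G63550, RAD5/AT5G22760 and RPA32B/AT3G02930 are not shown. That at RMI1/AT5G63550 lies 4.5 bp inside AT5G63550 and 108.5 bp upstream of the repair gene RMI1. The consensus was searched on both strands as TTNNCGNN, where each N is C or G, and its matches are in capitals. Each sequence is the plus strand of the TAIR10 chromosome as held by RefSeq (TAIR10.1). Between RBR1, which encodes RBR itself, and AT3G12290, an amino acid dehydrogenase family gene, the whole interval of 103 bases (chr3:3919360-3919462) holds 1 match, 71.5 bp upstream of RBR1 and 32.5 bp upstream of AT3G12290, and a further match lies 165.5 bp inside RBR1 (chr3:3919179-3919208).
RBR1/AT3G12290, between the TSSs: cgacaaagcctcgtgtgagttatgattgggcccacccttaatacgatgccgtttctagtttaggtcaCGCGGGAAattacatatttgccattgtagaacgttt
RBR1, inside the gene: atacaattataTTCGCGCGctttcaaccac
The interval between PSAT1, a phospholipid sterol acyltransferase gene, and BARD1, which encodes the RING partner of BRCA1 in DNA repair (chr1:1036265-1036492), and that between AT5G41870, a pectin lyase-like gene, and POLA3, a DNA primase gene (chr5:16760577-16760845), each hold 1 match close to the repair or replication gene: 30.5 bp upstream of BARD1 and 26.5 bp upstream of POLA3.
PSAT1/BARD1: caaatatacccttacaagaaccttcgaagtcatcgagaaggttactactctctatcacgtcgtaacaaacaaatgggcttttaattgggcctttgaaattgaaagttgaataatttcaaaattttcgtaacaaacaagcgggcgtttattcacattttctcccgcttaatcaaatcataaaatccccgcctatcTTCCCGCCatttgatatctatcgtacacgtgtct
AT5G41870/POLA3: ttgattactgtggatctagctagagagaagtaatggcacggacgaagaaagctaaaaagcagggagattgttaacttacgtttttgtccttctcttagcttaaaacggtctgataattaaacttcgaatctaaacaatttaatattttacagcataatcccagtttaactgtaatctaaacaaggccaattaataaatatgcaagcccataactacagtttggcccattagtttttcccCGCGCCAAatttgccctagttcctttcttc
In 2 wider pairs the matches are shown with their flanks. AT5G16680, a RING/FYVE/PHD zinc finger gene, faces ORC3, a subunit gene of the origin recognition complex, with 2 overlapping matches on opposite strands centred 45.5 and 43.5 bp upstream of ORC3 (chr5:5474308-5474337). AT3G27630, annotated as an SMR3-like inhibitor of cyclin-dependent kinases, faces AT3G27640, a transducin/WD40 repeat gene, with 3 matches. Shown are those 102.5 bp upstream of AT3G27630 (chr3:10231655-10231684) and 56.5 bp inside AT3G27640 (chr3:10232284-10232313), and the other one lies 145.5 bp upstream of AT3G27630.
ORC3: tcacgaattTTCCCGCCAAaaagagcggca
AT3G27630 side: ataatgttcagCCCGGGAAagctacgggta
AT3G27640 side: aaaaattaattTTCCCGCGtcaaatgagag

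Divergent intervals held a peak more often than tandem intervals of the same spacing in every one of the 7 lists, for the 3 E2Fs and for RBR. Because divergent pairs were spaced slightly wider (median 370.5 bp, against 314 bp for tandem and 196 bp for convergent pairs), tandem and convergent values were weighted to the spacing of the divergent pairs in bins of 100 bp. In replicate 1, an E2FA peak was found in 73.3% of divergent, 61.4% of tandem and 35.8% of convergent intervals. The values for E2FB were 76.1%, 60.4% and 33.2%, those for E2FC were 48.5%, 38.4% and 22.1%, and those for RBR were 79.4%, 66.0% and 41.4%, in the same order of pair types. Divergent intervals were thus the highest and convergent intervals the lowest in each list. In replicate 2, the values were 81.1%, 62.1% and 32.0% for E2FA, 86.9%, 69.1% and 35.0% for E2FB, and 88.9%, 72.8% and 41.4% for RBR. Over the 2460 divergent intervals, the exact Clopper-Pearson 95% intervals of these shares ran from 46.5% to 50.5% for E2FC and from 87.6% to 90.1% for RBR replicate 2, and they cover counting error only. Among all 12610 intervals of the 3 types, the share with a peak in replicate 1 was 55.9% (E2FA), 56% (E2FB), 34.6% (E2FC) and 62% (RBR). In replicate 2 it was 58.9% (E2FA), 64.8% (E2FB) and 68.8% (RBR). The divergent minus tandem difference averaged 14.9 percentage points ± 3.20 (SD, n = 7 lists; exact two-sided sign-flip permutation p = 0.0156, adjusted p = 0.0195 by Benjamini-Hochberg over 5 measures). This p is the smallest that 7 lists allow, and since all lists score the same intervals it measures only the spread between lists.

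**Figure D1:**
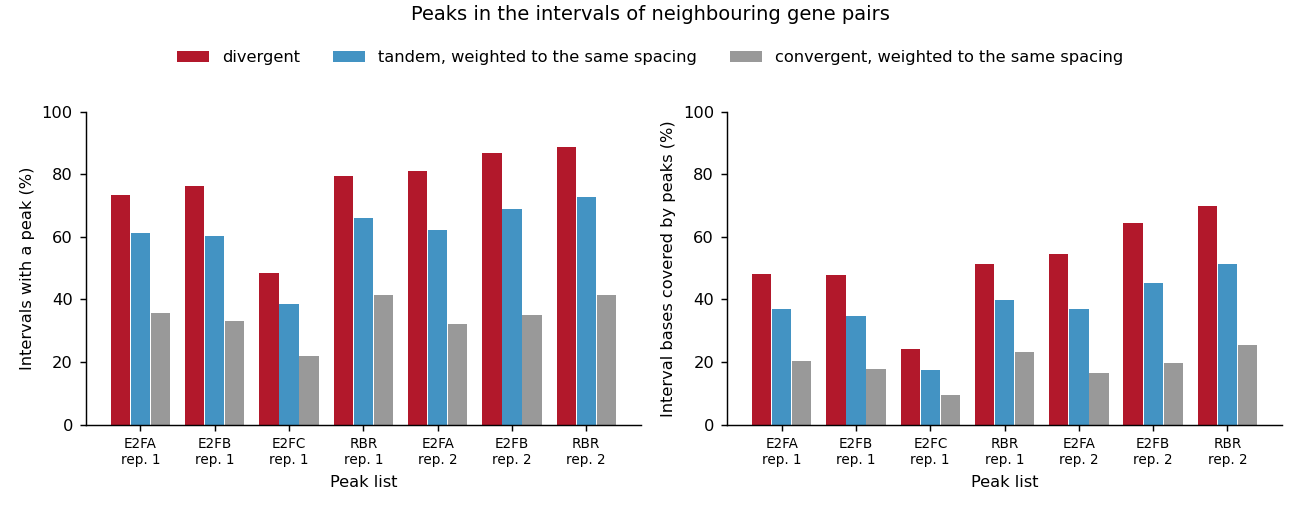
Share of intervals with a peak (left, %) and share of interval bases covered by peaks (right, %) in each of the 7 peak lists, for 2460 divergent pairs and for tandem and convergent pairs weighted to the same spacing; bars are single values per list, with no error bars. In both panels the divergent bar is the highest and the convergent bar the lowest in every list, from 48.5% against 38.4% (tandem) and 22.1% (convergent) of intervals for E2FC to 88.9%, 72.8% and 41.4% for RBR replicate 2.

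A divergent interval holds 2 start sites and a tandem interval 1, so the lists were also scored per TSS. A peak lay within 200 bp of 67.3% of divergent and 56.4% of tandem TSSs for E2FA replicate 1, of 68.9% and 55.8% for E2FB replicate 1, of 40.3% and 32.8% for E2FC, and of 71.5% and 60.9% for RBR replicate 1. In replicate 2 these shares were 72.5% of divergent and 57.8% of tandem TSSs for E2FA, 79.6% and 65.1% for E2FB, and 82.3% and 68.9% for RBR. Divergent TSSs were thus higher in 7 of 7 lists, by 12.1 percentage points ± 2.59 (SD, n = 7 lists; exact sign-flip permutation p = 0.0156, adjusted p = 0.0195). A window of 200 bp can reach the partner's TSS in a compact pair. In pairs spaced over 400 bp, where the 2 windows no longer overlap, the difference was 10.2 ± 1.67 points (SD, n = 7 lists, adjusted p = 0.0195 in the same exact test). A single peak can still reach both windows there, since any overlap counted. For TSSs with a summit within 200 bp, given by replicate 2 only, the difference in these wide pairs was -0.43 ± 2.31 points (SD, n = 3 lists). Over all spacings, when the midpoint of the peak (its summit in replicate 2) had to lie within 200 bp of the TSS, the difference was 3.73 points (adjusted p = 0.0195, exact test, n = 7 lists).

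Peaks also covered more of the divergent intervals and ranked higher within their lists. The share of interval bases under a peak was 48.1% in divergent and 36.9% in tandem pairs for E2FA replicate 1, and 24.0% and 17.4% for E2FC. It reached 69.8% in divergent and 51.5% in tandem pairs for RBR replicate 2. The mean difference was 14 points ± 4.65 (SD, n = 7 lists; exact sign-flip permutation p = 0.0156, adjusted p = 0.0195). The median percentile of the strongest peak in an interval with a peak lay between 55.1 (E2FA replicate 1) and 74.0 (E2FB replicate 2) in divergent pairs, and between 45.8 (E2FC) and 58.8 (RBR replicate 2) in tandem pairs. This percentile was higher in divergent pairs in 7 of 7 lists, by 10.3 ± 3.35 on average (SD, n = 7 lists; exact sign-flip permutation p = 0.0156, adjusted p = 0.0195), and it takes the best of all peaks in an interval. Among peaks above the median fold enrichment of their list the difference in this percentile was 2.95, and with an extension of 500 bp the difference in bases covered was 8.86 points.

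Strong peaks, those over a fold enrichment of 3 with q under 0.01, were rare in replicate 1 and common in replicate 2. The cutoff meets unlike values, averaged over broad peaks in replicate 1 and taken at summits in replicate 2. The highest value of a list was 3.21 to 4.34 in replicate 1 and 69.4 to 119 in replicate 2. The 2 sets of shares are therefore not comparable with each other. In replicate 2 they were found in 44.6% of divergent and 26.8% of tandem intervals for E2FA, in 67.1% and 42.2% for E2FB, and in 68.5% and 44.5% for RBR; among all 12610 intervals these shares were 26.6%, 40.8% and 43.5%. In replicate 1, 62 divergent intervals had one for E2FA (2.52%, against 1.09% of tandem), 18 for E2FB (0.732%, against 0.213%) and 11 for E2FC (0.447%, against 0.140%), beside 1.23%, 0.27% and 0.174% of all intervals. For RBR replicate 1 the count was 0 of 2460 divergent intervals and 0% of all intervals, with an upper exact limit of 0.150%. The divergent minus tandem difference averaged 0.563 points over the 4 replicate 1 lists and 22.2 points over the 3 replicate 2 lists. A mean over all 7 lists describes neither set. The difference averaged 9.85 points ± 11.8 (SD, n = 7 lists; higher in 6 of 7; exact sign-flip permutation p = 0.03125, adjusted p = 0.03125). It lost its call when any list other than RBR replicate 1 was left out (adjusted p = 0.0625 in the exact permutation test each time, values from 7.35 to 11.4 points).

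By this share of TSSs with a peak within 200 bp, divergent pairs were above tandem pairs in both the most compact and the widest class of each list, by amounts that varied. The level itself moved differently with spacing from list to list. For E2FC, a peak within 200 bp was found at 27.5% of divergent and 21.1% of tandem TSSs spaced up to 200 bp, and at 46.4% and 40.0% of those spaced over 600 bp. For E2FA replicate 1 the values were 58.1% of divergent and 48.0% of tandem TSSs up to 200 bp, and 70.1% and 60.1% over 600 bp. RBR replicate 1 ran the other way, with 74.3% of divergent and 62.9% of tandem TSSs up to 200 bp and 65.9% and 55.8% over 600 bp, and E2FB replicate 1 had nearly the same divergent share at both ends (65.9% and 65.5%). All 3 replicate 2 lists were higher in compact pairs. E2FA replicate 2 had 84.5% of divergent and 64.7% of tandem TSSs up to 200 bp, and 59.5% and 49.6% over 600 bp. RBR replicate 2 had 92.3% of divergent and 76.8% of tandem TSSs up to 200 bp and 71.1% and 60.0% over 600 bp. These orders are a description of single lists. At the edge of the spacing rule, 93.3% of the 179 divergent pairs in the widest 100 bp held an E2FA replicate 1 peak, and 92.2% of the 154 pairs that were up to 100 bp too wide to be members. For RBR replicate 2 these shares were 90.5% and 92.2%.

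**Figure D2:**
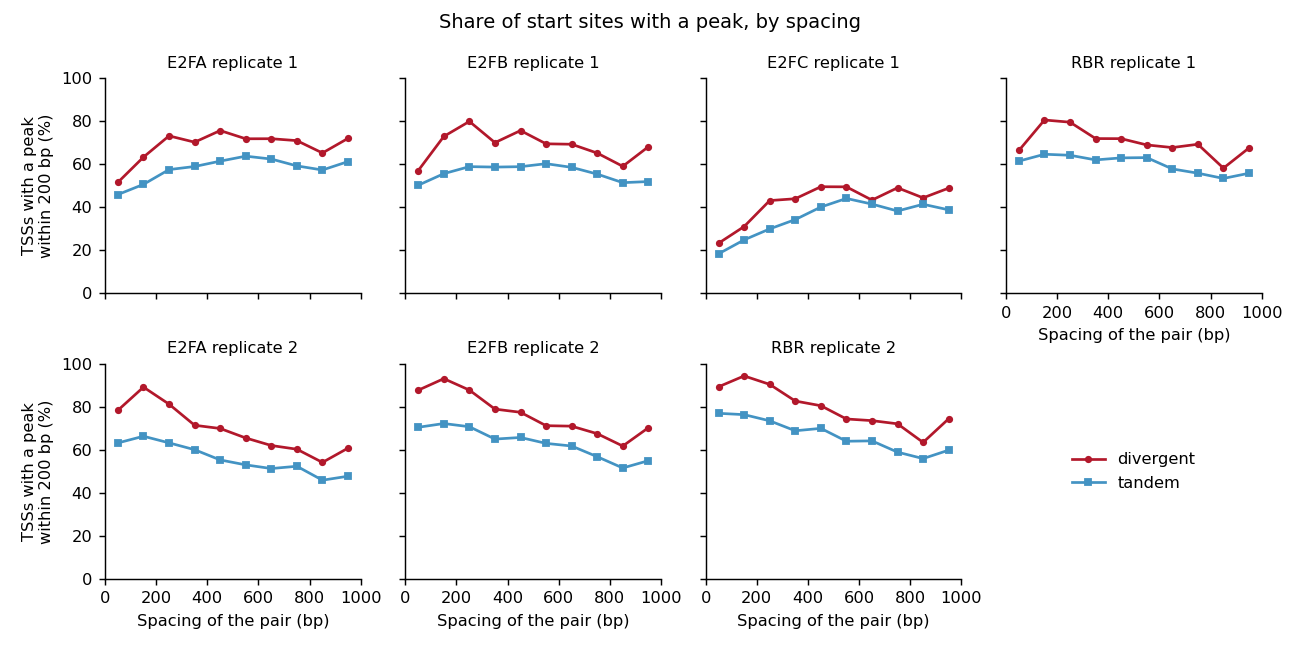
Share of TSSs with a peak within 200 bp (%, y axis) against the spacing of the pair (bp, in bins of 100 bp, x axis), 1 panel per peak list; red circles are divergent and blue squares tandem pairs. The divergent line lies above the tandem line along the whole range of each list, and in the 3 replicate 2 lists it is lower over 600 bp than up to 200 bp (59.5% against 84.5% for E2FA).

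A single peak often spanned both start sites of a divergent pair, most of all in compact pairs. Over all spacings, such a peak was found in 38.5% of divergent pairs for E2FA, 40.4% for E2FB, 44.2% for RBR and 12.0% for E2FC in replicate 1. In replicate 2, E2FA had 44.8%, E2FB 55.7% and RBR 58.6%. A peak spanning both facing gene ends was found in 27.1%, 25.7%, 7.99% and 31.0% of tandem pairs for E2FA, E2FB, E2FC and RBR in replicate 1, and in 26.2%, 34.9% and 40.3% for E2FA, E2FB and RBR in replicate 2. By spacing, RBR replicate 2 had a single peak over both TSSs in 89.1% of the 778 divergent pairs up to 200 bp, 66.0% of the 521 pairs over 200 and up to 400 bp, 47.8% of the 404 pairs up to 600 bp and 28.0% of the 757 wider pairs. Tandem pairs fell in the same order, with a peak over both facing ends in 68.5%, 45.3%, 27.9% and 15.7% of these classes. A short interval is by geometry more easily spanned by a peak, so this fall with spacing is a description. In the widest class, a peak within 200 bp of only 1 of the 2 TSSs was found in 26.2% (E2FA replicate 1) to 36.3% (E2FA replicate 2) of pairs over the 7 lists, and of both in 28.9% (E2FC) to 57.1% (E2FA replicate 1).

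Summits, which only the replicate 2 lists give, sat near the start sites rather than in the middle of wide divergent intervals. In pairs spaced over 600 bp, E2FA summits were a median of 73.5 bp from the nearer TSS and 378 bp from the middle of the interval. E2FB summits were 68 and 372 bp away from these points, and RBR summits 66 and 379 bp. In pairs up to 200 bp, the nearer TSS was 34, 35 and 32 bp away for E2FA, E2FB and RBR. Signed along transcription, the median summit of the widest pairs lay 16 bp (E2FA), 22 bp (E2FB) and 19 bp (RBR) upstream of the nearer TSS, and in tandem pairs of that spacing 109, 110 and 110 bp upstream. With 2 TSSs in reach, a summit in a divergent interval is by geometry nearer to a TSS, so these distances are a description.

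Most divergent intervals had a single summit and few had more. For E2FA, 22.4% had none, 69.5% had 1 and 8.17% had 2 or more. E2FB had 16.3%, 77.3% and 6.38%, and RBR had 15.7%, 77.4% and 6.87%. In the widest class, 2 or more summits were found in 19.7% of divergent and 7.64% of tandem intervals for E2FA, in 17.8% and 7.1% for E2FB, and in 19.9% and 7.59% for RBR. The mean number of summits per interval was 0.859 in divergent and 0.602 in tandem pairs for E2FA, 0.902 and 0.673 for E2FB, and 0.912 and 0.683 for RBR, a difference of 0.238 ± 0.0160 (SD, n = 3 lists; the smallest p an exact test of 3 lists can give is 0.25). Per TSS, a summit within 200 bp was found for 53.9% of divergent and 46.9% of tandem TSSs in E2FA, 57.8% and 53.5% in E2FB, and 58.4% and 54.1% in RBR. This difference of 5.21 points ± 1.57 (SD, n = 3 lists) was not seen in pairs spaced over 400 bp, where it was -0.43 ± 2.31 points (SD, n = 3 lists).

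The 3 proteins mapped in replicate 2 placed their summits close to one another. All 3 lists had exactly 1 summit in 606 of the 778 pairs up to 200 bp and in 318 of the 757 pairs over 600 bp. In those wide pairs, the median separation was 46 bp between E2FA and E2FB summits, 48 bp between E2FA and RBR, and 49 bp between E2FB and RBR. The 3 summits lay on the same side of the middle, that is beside the same gene, in 84.0% of these 318 pairs, against 54.6% of the 606 compact pairs. Pairs up to 200 bp had a median spacing of 108.5 bp, and their summits were a median of 34 to 41 bp apart between lists. The side of the middle is therefore poorly resolved in compact pairs, and the 2 shares are not comparable.

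**Figure D3:**
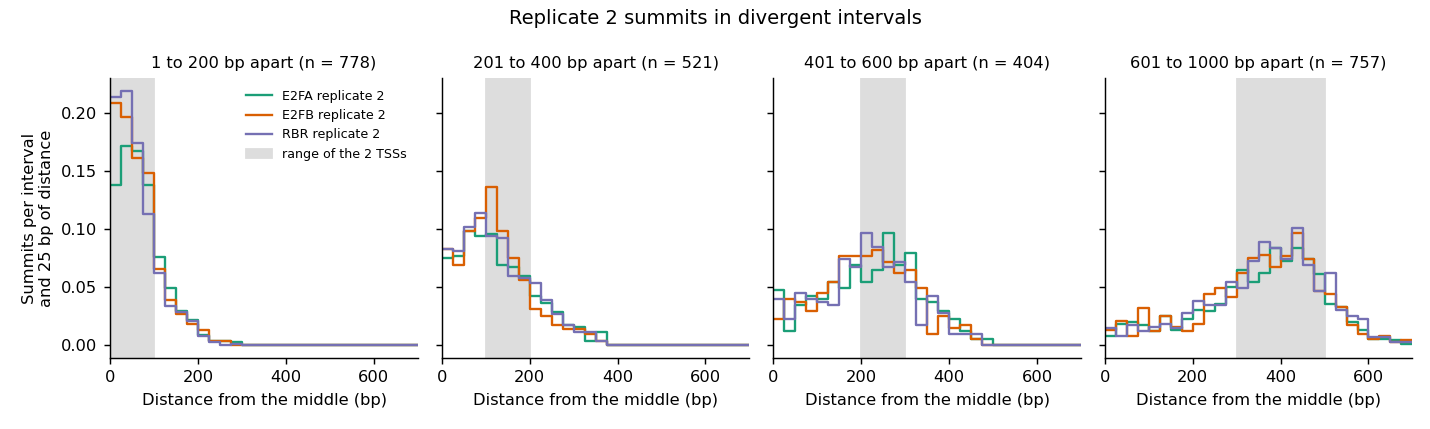
Number of replicate 2 summits per divergent interval and 25 bp of distance (y axis) against the distance of the summit from the middle of the interval (bp, x axis), for 4 spacing classes; coloured lines are the E2FA, E2FB and RBR lists and grey bands mark where the 2 TSSs of a class can lie. In pairs spaced over 600 bp the curves peak under the grey band, with median distances of 372 to 379 bp from the middle.

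Divergent promoters tended to be shared among the lists. A peak in all 7 lists was found in 1064 divergent intervals (43.3%), against 28.9% of tandem and 13.1% of convergent intervals after weighting, and against 27% of all 12610 intervals. A peak in none of the lists was found in 174 divergent intervals (7.07%), against 17.7% of tandem and 46.0% of convergent intervals. Among the 569 divergent intervals with a peak in 6 lists, the list without a peak was that of E2FC in 516 (90.7%), E2FA replicate 2 in 29, and each of the others in 2 to 8. E2FC has a single library, so its lower number of intervals cannot be told apart from that library.

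The E2F consensus was more common in divergent than in tandem intervals, and so was the same pattern read backwards. Among divergent intervals, the consensus was most common in those with a peak in all 7 lists. A match to TTNNCGNN, where each N is C or G, was present in 359 of 2460 divergent intervals (14.6%, exact Clopper-Pearson 95% interval 13.2% to 16.1%), 8.24% of tandem and 4.94% of convergent intervals. GC content differed in the same order, with medians of 35.8%, 33.6% and 33.1%. The same pattern read backwards, NNGCNNTT, which has the same base composition, was present in 10.3% of divergent, 5.47% of tandem and 4.38% of convergent intervals. A match was held by 21.6% of the divergent intervals with a peak in all 7 lists, 9.66% of those with a peak in 1 to 6 lists and 6.32% of those with none; the backwards pattern was in 11%, 10.1% and 6.9% of them. In the 154 divergent intervals whose mean percentile over the 7 lists (0 where a list had no peak) was 90 or more, 48.7% held a match and 15.6% held the backwards pattern. In tandem intervals past the same mark, the weighted shares were 41.0% and 13.5%. Where a divergent interval held a match, the summit of its strongest replicate 2 peak was a median of 57.5 bp away for E2FA (n = 328 intervals), 71.5 bp for E2FB (n = 336) and 108.5 bp for RBR (n = 328), and within 50 bp in 46.3%, 42.9% and 29.9% of these intervals. Tandem intervals with a match had medians of 45.5, 65.5 and 107.5 bp, and 52.0%, 45.3% and 29.8% of their summits lay within 50 bp. Closeness of summit and match was thus not particular to divergent pairs.

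Cell cycle genes were then followed in their divergent promoters. Of 258 genes on 6 lists (replication licensing, DNA synthesis, core histones, cell cycle regulators, DNA repair, and mitosis), 64 belonged to a divergent pair, each in a pair of its own, and none of the 64 pairs held 2 of them. A peak in all 7 lists was found in 50 of the 64 pairs (78.1%), against 43.3% of all divergent pairs. The single E2FC list alone had a peak in 50 of the 64 pairs. The median fold enrichment of the strongest peak in replicate 2 was 8.70 in these pairs and 3.20 in all divergent pairs with a peak for E2FA. It was 8.93 and 3.96 for E2FB, and 5.25 and 3.86 for RBR. The lists were chosen with results of these data known, so these counts are a description. Tandem promoters of 66 further cell cycle genes had a peak in all 7 lists in 52 cases (78.8%), and the 2 shares were not tested against each other.

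The lists differed among themselves. All 9 divergent pairs with a gene of DNA or deoxynucleotide synthesis had a peak in all 7 lists, with a median of the mean percentile of 95.9. For replication licensing it was 8 of 9 pairs (93.5), for DNA repair 10 of 13 (92.0), for cyclins, CDKs and other regulators 7 of 10 (89.2), for mitosis, cohesion and cytokinesis 9 of 12 (80.5) and for core histones and chaperones 7 of 11 (71.6). Over all divergent pairs this median was 47.4, and 43.3% had a peak in all 7 lists. Cytosolic ribosomal protein genes had a peak in all 7 lists in 4 of 11 divergent pairs, with a median of 31.6. Photosynthesis genes had one in 4 of 7, with a median of 65.2. In each of these gene lists, the count with a peak in all 7 peak lists equalled the count with an E2FC peak. These counts thus rest on the single E2FC library. Of the 11 ribosomal protein pairs, 7 had a peak in E2FA replicate 1, 10 in E2FB replicate 1 and 11 in every other peak list but E2FC. In tandem promoters of the same lists, the counts with a peak in all 7 lists were 7 of 10 (DNA synthesis), 5 of 5 (licensing) and 10 of 13 (repair). They were 17 of 22 (regulators), 7 of 8 (mitosis), 6 of 8 (histones), 2 of 13 (ribosomal) and 6 of 13 (photosynthesis), beside 27.6% of all tandem pairs. Differences between pair types or lists were not tested. A consensus match was present in 10 of 13 DNA repair, 7 of 9 DNA synthesis, 5 of 9 licensing, 5 of 11 histone, 3 of 10 regulator and 2 of 12 mitosis pairs. It was present in 2 of 11 ribosomal protein and 2 of 7 photosynthesis pairs, and in 14.6% of all divergent pairs.

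The highest mean percentile of all 2460 divergent promoters belonged to RBR1/AT3G12290, whose TSSs are 104 bp apart. Its strongest peaks had fold enrichments of 3.98 (E2FA), 3.06 (E2FB), 3.31 (E2FC) and 2.71 (RBR) in replicate 1 and of 35.6 (E2FA), 29.0 (E2FB) and 34.8 (RBR) in replicate 2. The pair ranked above all other divergent pairs in E2FC and in the 3 replicate 2 lists. The runner-up in each of those 3 lists, CHR17/AT5G18630, named after its values were seen, was close for E2FA (35.0) and E2FB (25.3) but far lower for RBR (10.1). The RBR peaks at this pair were 5941 bp (replicate 1) and 6255 bp (replicate 2) wide and covered 94.2% and 95% of the 6011 bp of the RBR1 gene (chr3:3913349-3919359), whereas the peaks of the other 5 lists were 702 to 1514 bp wide and covered 8.67% to 17.5% of it. The RBR-GFP plants carry a transgene made from the RBR sequence, and signal from that copy and from the gene's own place in the genome cannot be told apart. The E2FA and E2FB summits lay 173 and 169 bp inside RBR1, 7.5 and 3.5 bp from the match printed above, and the RBR summit 129 bp inside.

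The other 11 of the 12 highest-ranked cell cycle pairs also had peaks in all 7 lists, which follows from how they were chosen. They were ranked by mean percentile, to which a list without a peak adds nothing. The lowest of the 12, AT5G41870/POLA3, had a mean percentile of 97.4, which a pair lacking a peak in any list cannot reach. Peaks in all 7 lists are therefore no separate result for these pairs. At MCM6/BGLU13 (479 bp), which pairs a subunit of the replicative helicase with a beta-glucosidase, fold enrichments were 3.52, 3.38, 3.05 and 2.48 for E2FA, E2FB, E2FC and RBR in replicate 1 and 23.9, 19.5 and 6.82 for E2FA, E2FB and RBR in replicate 2. The 3 summits lay 39, 55 and 31 bp upstream of MCM6, and 440, 424 and 448 bp upstream of BGLU13. The interval holds no consensus match. At AT1G02965/WEE1 (492 bp), where WEE1 encodes a kinase that restrains cyclin-dependent kinases, replicate 2 values were 11.6, 14.7 and 7.11 for E2FA, E2FB and RBR, with summits 22, 6 and 6 bp inside WEE1. At UVI4/AT2G42270 (371 bp), where UVI4 encodes an inhibitor of the anaphase-promoting complex and its partner a spliceosomal helicase, they were 12.4, 14.3 and 7.25, with summits 43, 22 and 63 bp upstream of UVI4.

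At AT5G16680/ORC3 (774 bp), E2FA, E2FB and RBR had fold enrichments of 18.9, 17.8 and 7.47 in replicate 2, with summits 25, 81 and 44 bp upstream of ORC3 and within 18.5, 35.5 and 0.5 bp of the nearest of the 2 overlapping matches. At AT5G41870/POLA3 (270 bp) the values were 20.7, 17.4 and 6.52, and the summits were 4.5, 2.5 and 21.5 bp from the match near POLA3. At RPA70D/EXO70E2 (889 bp), a gene for a single-stranded DNA-binding protein facing one for an exocyst subunit, they were 11.9, 14.2 and 7.29, with summits 9 bp upstream of, 7 bp inside and 20 bp upstream of RPA70D. The strongest peak of each of the 7 lists was 1363 to 1908 bp wide here. At RPA32B/AT3G02930 (292 bp) they were 10.7, 12.3 and 6.67, with the E2FA and E2FB summits 41 and 27 bp inside RPA32B and the RBR summit 49 bp upstream of it.

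Among repair genes, RMI1, whose product acts with RecQ helicases, shares 104 bp with AT5G63550, a DEK domain chromatin gene, and RAD5, a helicase gene of DNA damage tolerance, shares 66 bp with AT5G22760, a PHD finger gene. Fold enrichments in replicate 2 were 15.3, 14.9 and 7 at RMI1/AT5G63550 and 17.8, 14.2 and 7.33 at RAD5/AT5G22760 for E2FA, E2FB and RBR. Their summits lay 53, 92 and 51 bp upstream of RMI1, and 51, 12 and 53 bp upstream of AT5G63550. The E2FB summit was thus nearer the partner, and the only match lies 4.5 bp inside AT5G63550. In the other pair the summits lay 48, 13 and 12 bp inside RAD5. At PSAT1/BARD1 (229 bp) fold enrichments were 18.3, 20.8 and 8.97. The 3 summits lay 55, 53 and 58 bp upstream of BARD1 and 22.5 to 27.5 bp from the match. At AT3G27630/AT3G27640 (675 bp), which had the highest E2FA replicate 1 value of all divergent pairs (4.04), the replicate 2 summits parted. The E2FA summit lay 111 bp upstream of AT3G27630, 8.5 bp from one match. The E2FB and RBR summits lay 40 and 27 bp inside AT3G27640, 16.5 and 29.5 bp from the match there. Each replicate 2 list held only 1 summit in this interval. The strongest peak of each of the 7 lists covered both TSSs, so different summits do not show different genes bound.

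**Figure D4:**
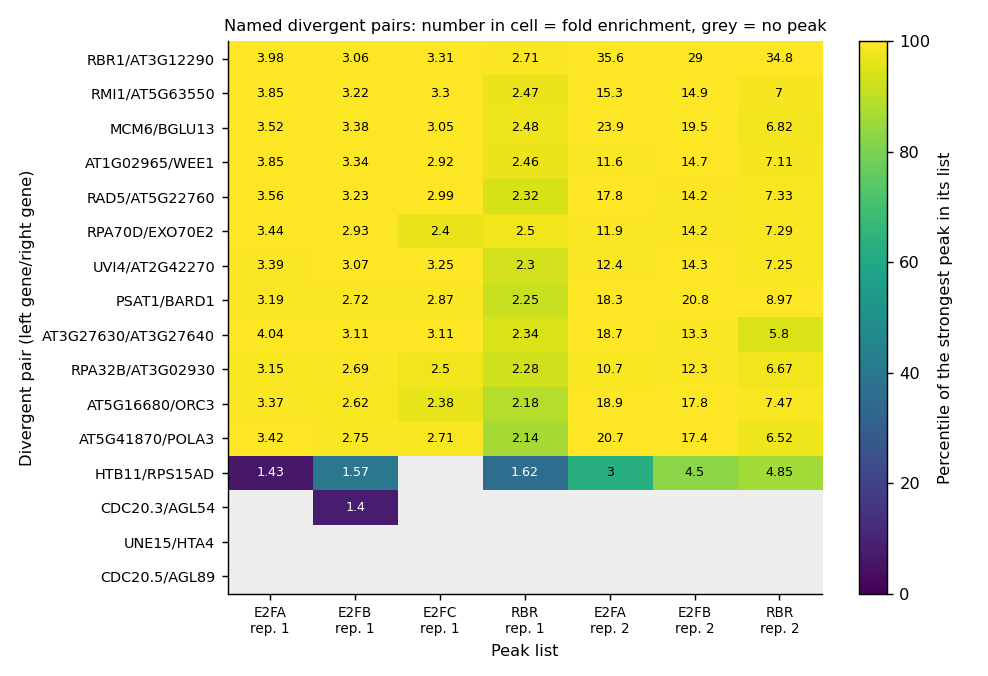
Strongest peak in each of 7 lists (columns) for 16 divergent pairs with a gene of the lists (rows); colour is the percentile of the peak in its list, the number in a cell is its fold enrichment and grey means no peak. The upper 12 pairs were chosen for a high and the lowest 3 for a low mean percentile among the cell cycle pairs, and HTB11/RPS15AD because both genes are on a list.

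In pairs with 1 cell cycle gene, the strongest summit mostly lay nearer that gene than its partner. For E2FA replicate 2, it was nearer the TSS of the cell cycle gene in 53 of 59 pairs with a summit in the interval (89.8%, exact 95% interval 79.2% to 96.2%). For E2FB replicate 2 it was 51 of 59 (86.4%, 75% to 94.0%), and for RBR replicate 2 it was 44 of 59 (74.6%, 61.6% to 85.0%). These intervals cover counting error only, and the 3 lists score largely the same pairs. Because the gene lists were chosen with results of these data known, the shares are a description. Over all divergent pairs, the strongest summit was nearer the gene on the plus strand in 47.9% (E2FA), 49.8% (E2FB) and 49.5% (RBR) of intervals. E2FA summits were a median of 40 bp from the TSS of the cell cycle gene, E2FB summits 33 bp and RBR summits 45 bp. In pairs spaced over 400 bp the summit was on the side of the cell cycle gene in 24 of 27 (E2FA), 24 of 28 (E2FB) and 18 of 27 pairs (RBR). The exact 95% intervals were 70.8% to 97.6%, 67.3% to 96.0% and 46.0% to 83.5% in the same order. All 3 summits were beside the cell cycle gene in 40 of the 57 pairs where each list had one, all 3 beside the partner in 4, and the lists were divided in 13. Among ribosomal protein genes the listed gene was the nearer one in 7 of 11 pairs for E2FA, 7 of 11 for E2FB and 7 of 10 for RBR. Among photosynthesis genes it was the nearer one in 1 of 6 pairs (E2FA), 2 of 7 (E2FB) and 3 of 6 (RBR).

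**Figure D5:**
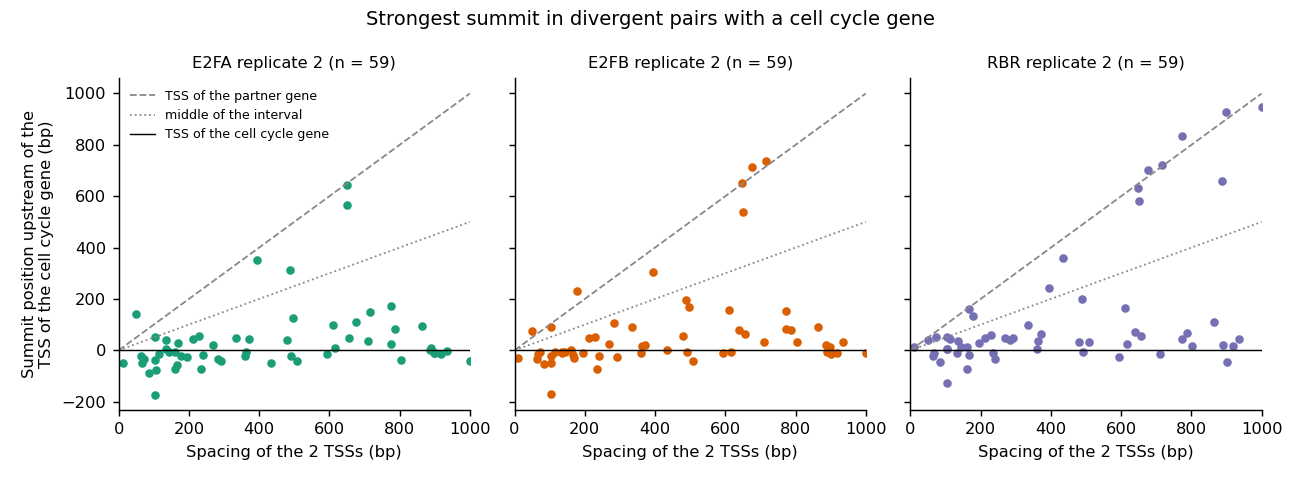
Position of the strongest replicate 2 summit (bp upstream of the TSS of the cell cycle gene, y axis; negative values lie inside the gene) against the spacing of the 2 TSSs (bp, x axis) in 59 divergent pairs per list; the solid line is the TSS of the cell cycle gene, the dashed line that of its partner and the dotted line the middle. Most points lie below the dotted line (53, 51 and 44 of 59 for E2FA, E2FB and RBR), and 6 E2FA points and 15 RBR points lie above it. In pairs spaced over 400 bp, 18 of 27 RBR points lie below the dotted line.

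Not all of these promoters held a peak. The pairs with the lowest values of the 64 were CDC20.3/AGL54 (659 bp), with a single peak (E2FB replicate 1, fold enrichment 1.40), and UNE15/HTA4 (590 bp) and CDC20.5/AGL89 (275 bp), with no peak in any list. CDC20 proteins activate the anaphase-promoting complex, HTA4 encodes a histone H2A, and AGL54 and AGL89 encode AGAMOUS-like MADS-box proteins. The only divergent pair with both genes on a list, HTB11/RPS15AD (394 bp, a histone H2B and a small ribosomal subunit protein), had peaks in 6 lists, all but E2FC, with fold enrichments of 1.43 to 1.62 in replicate 1 and of 3 (E2FA), 4.50 (E2FB) and 4.85 (RBR) in replicate 2; its summits lay 42, 91 and 150 bp upstream of RPS15AD.

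Strong divergent promoters were not restricted to the cell cycle lists. AT1G77620/LYM3 (377 bp), a P-loop triphosphatase gene facing a LysM domain gene, was the next highest after RBR1 by mean percentile (99.5), with replicate 2 fold enrichments of 17.2, 19.1 and 9 for E2FA, E2FB and RBR, and summits 66, 66 and 79 bp upstream of AT1G77620. COG0212/AT1G76740 (256 bp) had 12.3, 17.5 and 9.59, with summits 44, 46 and 114 bp upstream of COG0212. Neither interval holds a consensus match. The highest RBR replicate 1 value (2.93) was at WIH2/ERD15 (958 bp), a proline-rich family gene and a dehydration-induced gene, where the E2F and RBR peaks of replicate 2 were 2333 to 3299 bp wide and 2 of their 3 summits fell outside the interval, 469 bp (E2FA) and 1415 bp (RBR) downstream of the TSS of ERD15. The WIH2/ERD15 interval holds 2 overlapping consensus matches, 347.5 and 349.5 bp upstream of WIH2. At the other extreme, the widest divergent pairs without a peak in any list were AT2G31920/AT2G31930 (997 bp), AT1G50680/AT1G50690 (992 bp) and AT3G43940/AT3G43950 (990 bp), none of which held a match.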

How the data were processed

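The submitters' processing notes name Trimmomatic 0.38, Bowtie2 2.3.5, SAMtools 1.9, MACS2 2.2.7.1 and the build TAIR10, and replicate 2 peak names start with Macs3. The authors called peaks per library. The deposited lists give fold enrichment (a ratio over local background) and −log10 p and q values, for the whole peak in replicate 1 and at the summit in replicate 2. Read depth was not used. Genes came from the RefSeq annotation of TAIR10.1.

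A peak counted with 1 bp of overlap. Tandem values were weighted to divergent spacing in 100 bp bins. Differences within lists were tested over lists by an exact two-sided sign-flip permutation test, adjusted by Benjamini-Hochberg over 5 measures. Alternatives varied the extension, the peaks used, the weighting, the spacing and the lists. The labels call 3 samples a second bioreplicate and do not say whether plants were grown separately, whereas the series' design text gives 1 replicate per experiment, so p-values measure only the spread between lists. Scoring was tested on simulated peaks (Python 3.11.15, numpy 2.4.6, pandas 2.3.3, scipy 1.17.1, matplotlib 3.10.9).

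Members and gene lists were chosen with earlier results of these data known; lists were trimmed by annotated product. Named pairs were those with 2 listed genes, the 12 cell cycle pairs of highest and 3 of lowest mean percentile, the 5 highest of all pairs, the highest of each list and the 3 widest without a peak. Organelle peaks were left out.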

Additional observations from a re-analysis of the deposited data

How the results depend on the processing

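In the 100 refits of the 5 measures, the divergent value stayed above the tandem value. With the 3 replicate 2 lists alone the mean differences were 17.6 points for intervals with a peak, 14.2 for TSSs, 18.5 for bases covered, 22.2 for strong peaks and 12.7 for the median percentile (exact p = 0.25 in each, the smallest possible). With the 4 replicate 1 lists alone they were 12.8, 10.5, 10.6, 0.563 and 8.50 (adjusted p from 0.156 to 0.25). Both subsets were chosen after seeing the data and are too small to pass the threshold. Leaving out each list in turn gave 14.2 to 15.7 points for intervals, 11.7 to 12.9 for TSSs, 13.1 to 15.2 for bases, 7.35 to 11.5 for strong peaks, 9.38 to 11.2 for the percentile, 0.229 to 0.243 summits per interval and 4.31 to 5.69 points for TSSs with a summit. That last difference turned to -0.43 in pairs spaced over 400 bp; the cause was not tested. Values moved by over 1.5 times, with the call kept, for TSSs when the midpoint or summit had to lie in the window (3.73 points), for the percentile among peaks above each list's median (2.95) and for bases with an extension of 500 bp (8.86). Without tests, summits per interval were 0.138 apart without the extension, and TSSs with a summit 12.2 points apart with a window of 500 bp and 10.4 among peaks above the median. Weighting tandem pairs by GC content as well as spacing, also added after seeing the data, gave 18.8 points for intervals and 15.8 for TSSs. Counting only peaks above each list's median fold enrichment gave a peak in all 7 lists in 15.3% of divergent intervals, and only peaks up to 2000 bp wide 39.2%, against 43.3%. The consensus share of divergent intervals was 10.3% for the pattern read backwards and 5% without the extension, beside 3.51% of tandem intervals without it. A summit window without extension was not run, since it would leave only the TSS base itself. No paired analysis was possible because the labels number only the second replicates, so no libraries can be paired by number across replicates. The divergent and tandem values were already paired within each list. No libraries of untagged plants were analysed here, so the peaks were not set against such a background.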

Other observations

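The divergent pairs hold a duplicated arrangement around PCNA, the sliding clamp of the replication machinery, named here after its values were seen. PCNA1 faces MAC5A at 114 bp and PCNA2 faces MAC5B at 73 bp, where MAC5A and MAC5B encode related proteins of a spliceosome-associated complex. Both pairs had a peak in all 7 lists. Fold enrichments in replicate 2 were 18.3 for E2FA and 5.36 for RBR at MAC5A/PCNA1, and 15.5 for E2FA and 5.29 for RBR at PCNA2/MAC5B, with mean percentiles of 96.6 and 95.5. The 2 intervals belong to duplicated genes. The study reports removing reads of low mapping quality, and whether any remaining reads were misplaced between the copies was not tested.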
